A study of Mus musculus with 3 samples.

Results

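The mitochondrial chromosome of the mouse carries 37 annotated genes, and all 37 were described here in macrophages, out of 55536 genes in the tables. A gene was taken when its symbol begins with mt-, and no measured value entered that choice. They comprised 13 mRNA genes, 2 rRNA genes and 22 tRNA genes. The data were 3 libraries of a single group, so levels and the spread between libraries could be described, and no condition could be compared with another. The cells were C57BL/6J bone-marrow-derived macrophages, primary cells grown out of marrow. All of them received lipid A, the part of bacterial lipopolysaccharide that Toll-like receptor 4 recognises, at 100 ng/ml for 12 hours, then spent 12 hours without it and received 100 ng/ml again for 60 minutes. Total RNA of the cytosolic fraction was depleted of ribosomal RNA and sequenced from 1 µg of RNA. The labels number the libraries as biological replicates under a single donor entry and give no sex or age, so p-values measure the spread between these samples, which may be technical. Cells without lipid A, or with a single dose, were not analysed here.

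Mitochondria keep a small circular genome that encodes core subunits of the respiratory chain and of ATP synthase, together with the rRNAs and tRNAs needed to translate them inside the organelle. Each strand is transcribed into a long precursor by the polymerase Polrmt with Tfam and Tfb2m, and the tRNAs that lie between the other genes are cut out, which frees the mRNAs and rRNAs. Nuclear chromosomes also hold copies of mitochondrial DNA, and reads from a copy that is identical in sequence cannot be told apart from reads of the mitochondrial gene. In macrophages, respiratory chain activity is known to change after Toll-like receptor signals.

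Expected counts on genes, which are the authors' maximum likelihood estimates of reads per gene, totalled 50807046, 53364168 and 46546422 in replicates 1, 2 and 3. The floor set by 3 counts lay between 0.0562 and 0.0645 CPM (counts scaled to a fixed library size), and floors cover counting error only. Of the markers of the labelled cell type, 8 of 8 for macrophages, among them Lyz2, Cd68 and Adgre1, lay above 1 TPM. The T and NK cell markers summed to 0.03 to 0.18 TPM, with Cd3g and Ncr1 listed at 0. Of the neutrophil markers 3 of 8 lay above 1 TPM and Ly6g was listed at 0, and Cd79b alone of 4 B cell markers lay above. None of 4 stromal markers lay above, and Col1a1 was listed at 0, 2.53 and 1.28 TPM in replicates 1, 2 and 3.

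The mitochondrial mRNAs were readily measured, the mitochondrial rRNAs were close to the limit of 1 TPM, and the tRNAs were at 0 in the gene tables. TPM, a share of transcripts scaled to a fixed total, divides counts by the effective length of a gene, which is its length less what the fragment length takes away. The 13 mRNAs together held 0.114%, 0.165% and 0.301% of all TPM in replicates 1, 2 and 3, a mean of 0.193% ± 0.0970 (SD, n = 3). The 2 rRNAs held 0.000712%, 0.000334% and 0.000418%. Against a level of 1 TPM, limma placed 12 members above and 0 below at an adjusted p under 0.05, of 15 that could be tested. Those 12 were 11 mRNAs and mt-Rnr1, and across all genes tested the share above 1 TPM was 44.5%. The members that were not placed were mt-Co2 (adjusted p = 0.313), mt-Co3 (adjusted p = 0.239) and mt-Rnr2 (adjusted p = 0.0950).

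**Figure D1:**
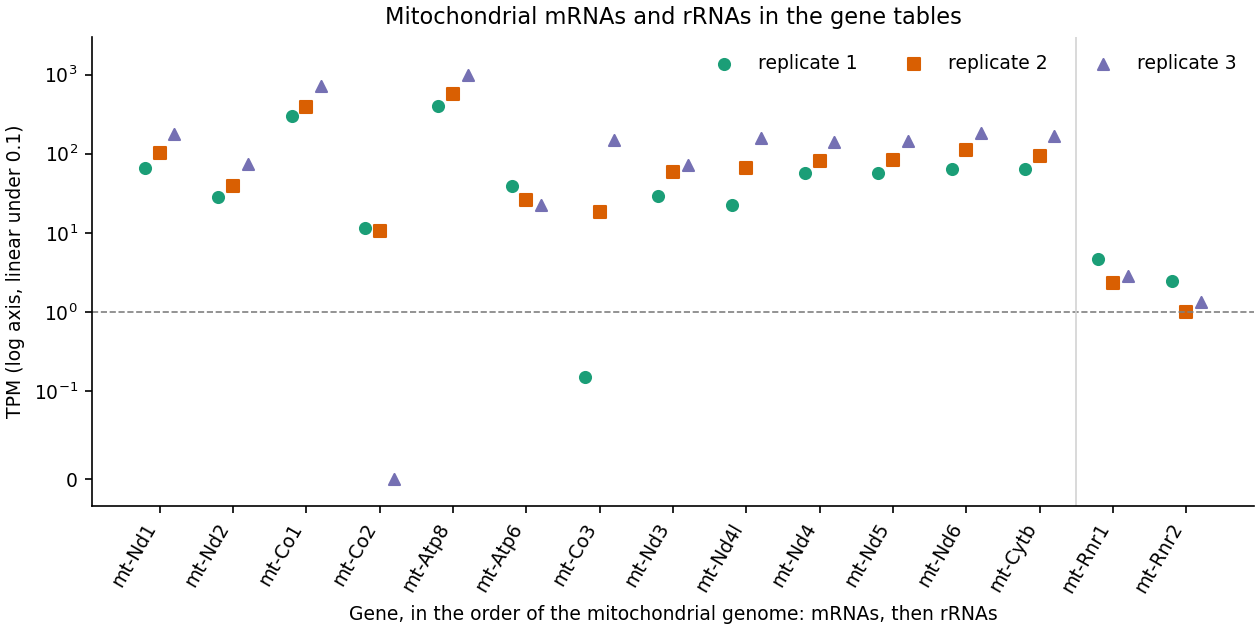
TPM (y axis, logarithmic and linear under 0.1) of the 13 mitochondrial mRNAs and 2 rRNAs (x axis) in each of the 3 libraries, with a dashed line at 1 TPM. Apart from mt-Co2 and mt-Co3, the mRNAs sit between 22.2 and 1000 TPM, most of them with replicate 3 highest. mt-Co2 is listed at 0 in replicate 3, mt-Co3 is at 0.15 TPM in replicate 1, and the rRNAs sit between 1.00 and 4.63 TPM.

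The values of 5 mRNAs depended on how reads were divided with nuclear copies. Aligned to the mitochondrial chromosome, 16 annotated nuclear genes matched at 90% identity or more over at least 80% of their transcript, and 7 of them matched at 99% or more over the aligned bases. All 7 lay side by side on the minus strand of chromosome 1, between bases 24611535 and 24616197 (mm10), in the same order as their counterparts on the mitochondrial chromosome. They are annotated as unprocessed pseudogenes, and 5 of the 7 were identical to the mitochondrial sequence over their whole length. The 9 other copies, at lower identity, drew few counts, and the highest of them, Gm13340, averaged 8.71 expected counts. The copies at 99% or more were Gm29216 (part of mt-Co1), Gm28661 (mt-Co2), Gm10925 (mt-Atp6), Gm28437 (mt-Co3), Gm28438 (mt-Nd3), Gm10222 (mt-Nd4l) and Gm28439 (part of mt-Nd4). Together they were given 24184, 37215 and 53437 expected counts in replicates 1, 2 and 3.

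The first 60 bases of mt-Co2 (ENSMUSG00000064354.1, chrM:7013-7072, plus strand) show why its reads cannot be placed by sequence: Gm28661 (chr1:24615506-24615565, minus strand) has the same letters throughout its 681 bases, whereas the more distant copy Gm13341 (chr2:22587903-22587962, minus strand) differs from mt-Co2 at 2 of these 60 positions, given in capitals. Sequences here come from the GENCODE M21 transcripts, on mm10, and run 5′ to 3′.
mt-Co2: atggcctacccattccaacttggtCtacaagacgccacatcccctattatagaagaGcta
Gm28661: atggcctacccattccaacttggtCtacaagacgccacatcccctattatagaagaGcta
Gm13341: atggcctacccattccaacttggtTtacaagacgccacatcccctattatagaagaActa

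A single base separated mt-Nd3 (ENSMUSG00000064360.1, chrM:9459-9491, plus strand) from Gm28438 (chr1:24613087-24613119, minus strand). It is T3C, with the mitochondrial base first and positions counted from 1 at the first base of mt-Nd3. The change is in the first triplet, and it is in capitals in the first 33 bases of both.
mt-Nd3: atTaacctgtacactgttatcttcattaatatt
Gm28438: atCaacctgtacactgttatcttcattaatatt

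The remaining copy that was not identical, Gm29216 (chr1:24616165-24616197, minus strand for the bases shown), covers only the end of mt-Co1 (ENSMUSG00000064351.1, chrM:6381-6413, plus strand for the bases shown). Its differences fall at its own start: T1056A, C1057T, A1059G, A1060G, C1062A and A1066T, counted from 1 at the first base of mt-Co1. They are in capitals. The identity of Gm29216, 99.79%, was taken over 483 aligned bases of its 492, which held only 1 of these mismatches.
mt-Co1: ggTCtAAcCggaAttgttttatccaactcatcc
Gm29216: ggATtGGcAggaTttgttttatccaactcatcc

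The share of a pair's counts given to the mitochondrial gene differed between libraries and between estimates for mt-Co2, mt-Atp6, mt-Co3, mt-Nd3 and mt-Nd4l. For mt-Co2, maximum likelihood gave the mitochondrial gene 4.60%, 3.25% and 0% of the pair in replicates 1, 2 and 3. The posterior mean, an average over draws of how the same reads could be divided, gave it 12.0% to 17.7%. In replicate 3 this was 0 counts by maximum likelihood and 2542 by the posterior mean, with a posterior SD of 897. The 0 listed for mt-Co2 in that library is thus an assignment of reads, and the authors' credibility interval for the gene there ran from 26.7 to 114 TPM.

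For mt-Co3 the same share was 0.0812%, 7.79% and 35.8% by maximum likelihood, and 35.7% to 45.0% by the posterior mean. For mt-Atp6 it was 23.3%, 12.5% and 5.99% by maximum likelihood. A second set of tables, also deposited by the authors, gave mt-Atp6 93.3% to 98.0% of the same pair. The estimates thus placed the reads of this gene on opposite members of the pair. For mt-Nd4l the gene tables gave 43.4% ± 19.8 (SD, n = 3), and the second tables gave the mitochondrial gene 100%. For mt-Nd3 the ranges were 45.9% to 77.2% and 34.6% to 62.2%.

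The sums of the pairs differed less between the methods than the divisions for mt-Atp6 and mt-Nd4l. The mt-Atp6 pair had 5820, 8903 and 14002 expected counts in replicates 1, 2 and 3 in the gene tables, and 6228, 9533 and 14906 in the second tables. The mt-Nd4l pair had 697, 1131 and 1878 in the gene tables, and 898, 1480 and 2443 in the second tables, so it was higher there in every library. For mt-Co1 and mt-Nd4, whose copies match only a portion of the gene, the division moved little: mt-Co1 received 92.3% to 93.5% of its pair, and mt-Nd4 received 100% in the gene tables and 88.0% to 100% in the second tables. The other 6 mRNAs (mt-Nd1, mt-Nd2, mt-Nd5, mt-Nd6, mt-Cytb and mt-Atp8) had no annotated copy of their own at 99% or more. Nuclear sequence outside annotated transcripts was not searched. mt-Atp8 lies within the mitochondrial stretch that the copies span, bases 6390 to 11042, and Gm10925 also holds the bases that mt-Atp8 shares with mt-Atp6. Reads of mt-Atp8 may therefore be ambiguous too. Levels for the mRNAs with a copy are therefore also given with the copy added, which counts any RNA of the copy itself as mitochondrial.

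**Figure D2:**
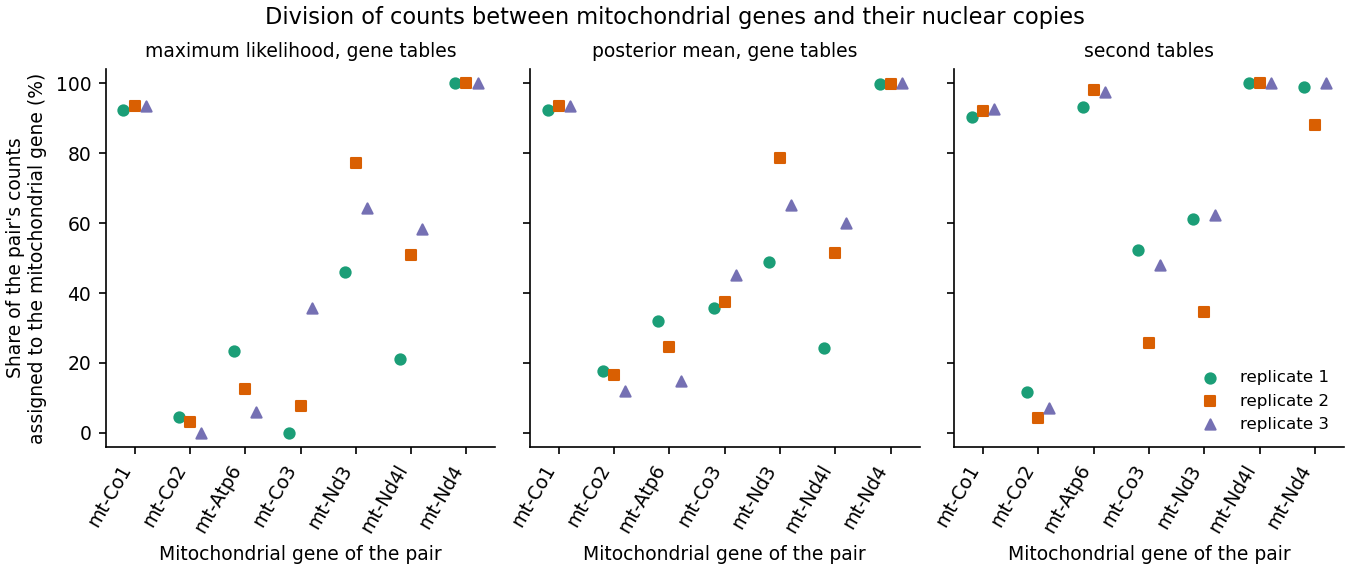
Share of the counts of each pair (mitochondrial gene plus its copy on chromosome 1) that was assigned to the mitochondrial gene, in percent, for 7 pairs, 3 libraries and 3 estimates. The mt-Co2 points lie under 18% in every panel, the mt-Atp6 points lie under 32% in both panels from the gene tables and above 93% in the second tables, and mt-Co1 stays above 90%.

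Complex I, NADH dehydrogenase, takes electrons into the respiratory chain, and 7 of its subunits are encoded here. mt-Nd1 had 65.7, 101 and 177 TPM in replicates 1, 2 and 3 (115 ± 56.9, SD, n = 3), and mt-Nd2 had 28.3, 39.6 and 74.0 TPM. mt-Nd4 had 57.5, 80.7 and 142 TPM and mt-Nd5 had 56.7, 82.3 and 146 TPM, the last of these encoded by the longest gene of the genome. All of these were lowest in replicate 1 and highest in replicate 3. mt-Nd3 had 28.9, 58.1 and 72.9 TPM alone and 63.7, 75.6 and 115 TPM with Gm28438. mt-Nd4l, which shares 7 bases with mt-Nd4 in the same direction, had 22.3, 65.9 and 160 TPM alone. With Gm10222 it had 108, 131 and 277 TPM, so that the ratio of replicate 3 to the mean of the others was 3.63 alone and 2.31 with the copy.

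mt-Nd6 is the only mRNA gene on the light strand, and it too encodes a subunit of complex I. Here heavy denotes the genes on the plus strand of mm10, transcribed from the heavy strand promoter, and light denotes those on the minus strand. mt-Nd6 had 63.6, 112 and 185 TPM. Over the median of the 12 heavy strand mRNAs this was a ratio of 1.37 ± 0.147 (SD, n = 3) with the genes alone and of 0.837 ± 0.119 with the copies added, so its place above or below the heavy strand median depended on the copies. The composition of the gene sets it apart too: it holds 28.1% G and 5.97% C, against 5.88% to 16.1% G in the heavy strand mRNA genes. mt-Nd6 overlaps mt-Nd5 by 14 bases on opposite strands. The strand setting of the counting is not given in the sources used here, so reads from the 2 strands cannot be told apart there or in RNA antisense to either gene.

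Complex III is represented by mt-Cytb, its cytochrome b subunit, which passes electrons from ubiquinol to cytochrome c. It had 64.1, 94.5 and 169 TPM in replicates 1, 2 and 3. Within each library it stood level with mt-Nd1: per kilobase of gene, mt-Nd1 was 0.999 ± 0.0233 times mt-Cytb (SD, n = 3), and the order of this pair was not the same in every library.

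Complex IV, cytochrome c oxidase, reduces oxygen, and its catalytic core is made of the proteins of mt-Co1, mt-Co2 and mt-Co3. mt-Co1 had 302, 385 and 715 TPM alone (467 ± 219, SD, n = 3) and 424, 513 and 962 TPM with Gm29216, although that sum counts the copy per its own shorter length. mt-Co2 had 11.5, 10.7 and 0 TPM alone, against 252, 331 and 558 TPM with Gm28661. mt-Co3 had 0.15, 18.5 and 150 TPM alone, against 189, 238 and 420 TPM with Gm28437. Both therefore stood among the highest mRNAs with the copy and among the lower ones without it. With the copies added both lay above 1 TPM (limma, adjusted p = 8.95e-08 for mt-Co2 and 1.55e-07 for mt-Co3).

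Complex V is ATP synthase, to which mt-Atp6 and mt-Atp8 give subunits of the membrane part. Their genes share 43 bases in different reading frames, shown in capitals within chrM:7907-7989 (plus strand), where the start codon of mt-Atp6 opens the shared run.
mt-Atp8 and mt-Atp6: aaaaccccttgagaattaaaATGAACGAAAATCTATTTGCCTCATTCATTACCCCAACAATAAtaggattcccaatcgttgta

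mt-Atp6 had 39.1, 25.8 and 22.2 TPM alone in replicates 1, 2 and 3, with the opposite order of libraries from most mRNAs. With Gm10925 it had 169, 208 and 373 TPM and took the common order. mt-Atp8 was the highest mitochondrial gene by TPM, at 396, 572 and 1000 TPM. This rank rests on its short effective length, which averaged 23.2 ± 2.55 bases (SD, n = 3) of a gene of 204 bases in the gene tables. Per kilobase of full length, with the copies added, it ranked 9 of 13, and in the second tables it had 82.4, 155 and 190 TPM.

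Starts and ends of the genes followed known mitochondrial patterns. Of the 13 mRNA genes, mt-Nd1 starts with GTG, mt-Nd2 with ATA, mt-Nd3 with ATT, mt-Nd5 with ATC, and the remaining ones with ATG. mt-Co3, mt-Nd4 and mt-Cytb end 1 base beyond whole codons in the annotation, and their stop codons are known to be completed by the poly(A) tail. The median GC content of the mRNA genes was 37.1%, against 50.4% in nuclear protein-coding transcripts.

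The order of the mRNAs is given in expected counts per kilobase of gene and scaled to a fixed library size (as in CPM), with copies added. On that scale mt-Co1 averaged 732, mt-Co2 435, mt-Co3 344 and mt-Atp6 285. These 4 held their order in all 3 libraries, with each neighbour's ratio beyond its spread: mt-Co1 was 1.66 ± 0.102 times mt-Co2, mt-Co2 was 1.27 ± 0.0363 times mt-Co3, mt-Co3 was 1.21 ± 0.0133 times mt-Atp6 and mt-Atp6 was 1.96 ± 0.249 times the next gene, mt-Nd1 (SD, n = 3). Below them mt-Nd1, mt-Cytb, mt-Nd5, mt-Nd4, mt-Atp8 and mt-Nd6 lay between 118 and 151, and mt-Nd4l, mt-Nd2 and mt-Nd3 lay between 54.1 and 84.5. Of the 12 neighbouring pairs 8 kept their order in every library. The 4 pairs that did not differ beyond their spread were mt-Nd1 and mt-Cytb, mt-Nd4 and mt-Atp8, mt-Atp8 and mt-Nd6, and mt-Nd2 and mt-Nd3. Full length places short genes lower than effective length does. By TPM with copies, mt-Nd4l averaged 172 and mt-Nd6 120, the reverse of their order here. The order is therefore that of counts per kilobase of full length only.

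**Figure D3:**
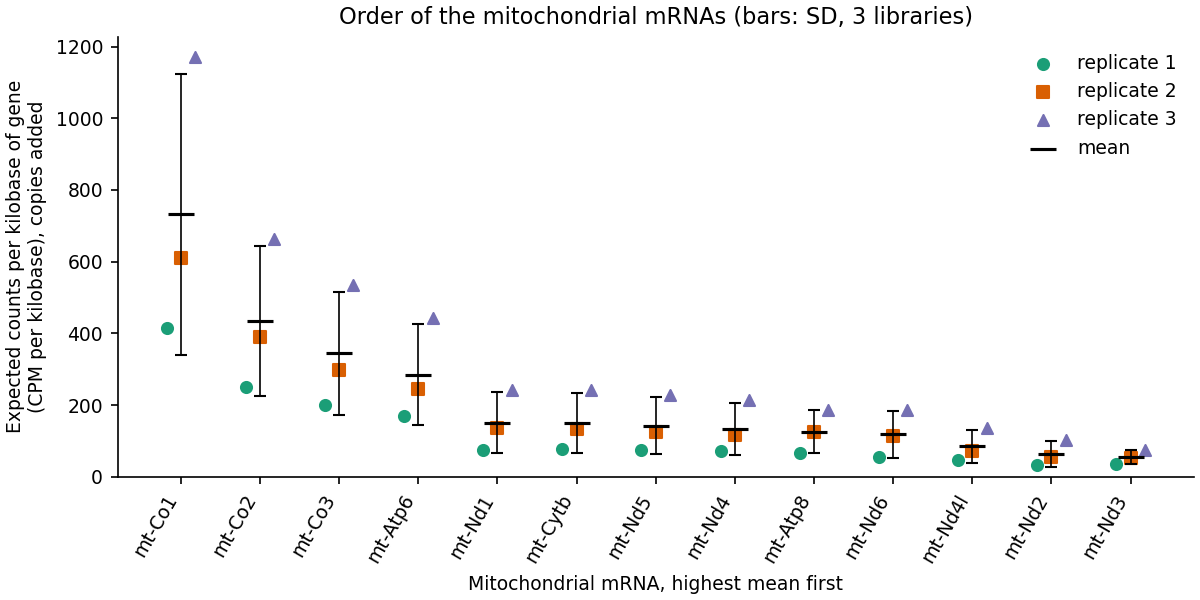
Expected counts per kilobase of gene length at a fixed library size (y axis, as in CPM), copies added, for the 13 mitochondrial mRNAs in the order of their means (x axis), with each library as a point and the mean and SD of the 3 libraries in black. The 3 mRNAs of complex IV and mt-Atp6 stand above the other 9, and the SD bars are wide because the whole set is higher in replicate 3 than in replicates 1 and 2.

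By complex, the make-up of the mitochondrial mRNA counts was nearly the same in the 3 libraries once the copies were added. Complex IV took 61.4%, 58.7% and 59.4% (59.8% ± 1.43, SD, n = 3) in replicates 1, 2 and 3, of which mt-Co1 alone held 39.7% ± 1.20. Complex I took 26.4% ± 1.32, complex V 7.81% ± 0.296 and complex III 5.95% ± 0.341. With the genes alone complex V held 3.63%, 2.63% and 1.66%. The second tables with copies gave complex IV 60.4% ± 1.30 and complex I 26.2% ± 1.21. All these are shares of counts, to which longer genes add more. In TPM with copies, complex IV took 42.9% ± 1.48, complex V 29.8% ± 0.542, complex I 23.8% ± 0.759 and complex III 3.55% ± 0.204. There mt-Atp8, with its short effective length, held 21.5% ± 0.899 alone, so the place of complex V depends on the measure.

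While the make-up held, the share of each library that fell on mitochondrial mRNAs did not. All 13 mRNAs varied between libraries beyond sampling noise in a chi-square test of the expected counts, and so did both rRNAs, making 15 of 15 members tested, where the share called among all genes tested was 69.3%. The largest adjusted p among the 15 was that of mt-Rnr1, 2.06e-06. The test calls smaller differences at higher counts, and all genes from 30 counts in sum entered it. The share of members and that of all genes are thus not matched for depth. The test also takes in the division of reads with copies, and for mt-Co2 the call was lost without replicate 3 (adjusted p = 0.255). When the copies were added, 15 members were again called. With the copies added, 13 of 13 mRNAs were highest in replicate 3 and lowest in replicate 1, and with the genes alone 11 of 13 were. Among all genes at a mean of 1 TPM or more, 11.1% were highest in replicate 3. The 2 exceptions with the genes alone were mt-Co2 and mt-Atp6.

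Summed over the 13 mRNAs, TPM in replicate 3 was 2.17 times the mean of replicates 1 and 2. Gene by gene that ratio ran from 1.64 (mt-Nd3) to 2.31 (mt-Nd4l) with copies, with a median of 2.07. The median over all genes at 1 TPM or more was 0.897, and the middle 50% of genes lay between 0.811 and 0.985. Over nuclear protein-coding TPM in place of all TPM, the summed ratio of the mRNAs was 2.44. Nuclear protein-coding genes thus held a smaller part of TPM in replicate 3. TPM is a share of a fixed total, so a median under 1 does not show less RNA. With the genes alone the ratio ran from 0 for mt-Co2 to 16.1 for mt-Co3. In the second tables with copies it ran from 1.47 to 2.13, and all 13 mRNAs were again highest in replicate 3. The SD of log2(TPM + 1) between libraries had a median of 0.69 over the 13 mRNAs and of 0.15 over all genes at 1 TPM or more.

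**Figure D4:**
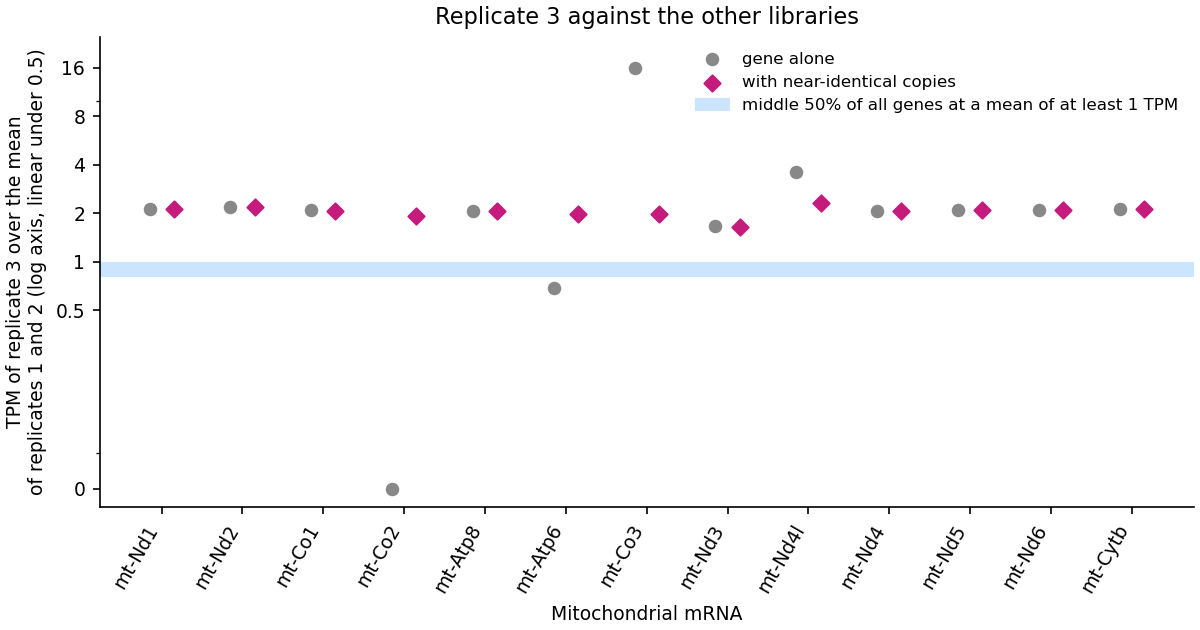
TPM in replicate 3 over the mean of replicates 1 and 2 (y axis, logarithmic and linear under 0.5) for each mitochondrial mRNA, for the gene alone and with its near-identical copy added, beside a band for the middle 50% of all genes at a mean of at least 1 TPM. With copies added every mRNA lies between 1.64 and 2.31, and with the genes alone mt-Co2 and mt-Co3 lie at 0 and 16.1.

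Most of the listed RNAs known to stay in nuclei were also highest in replicate 3, but they did not share the order of replicates 1 and 2. Of 6 such RNAs 5 were highest in replicate 3, and the list summed to 27924, 27026 and 68735 TPM in replicates 1, 2 and 3, nearly all of it Rn7sk, a small RNA that holds back transcription elongation. Malat1 had 112, 90.6 and 452 TPM and Neat1 had 10.9, 7.10 and 29.7 TPM, whereas Tug1 had 22.8, 15.8 and 16.9 TPM. Rn7sk, Malat1 and Neat1 were thus lower in replicate 2 than in replicate 1, whereas every mitochondrial mRNA with copies added was higher in replicate 2. None of the 6 was listed at 0 in every library. Their part in the result was not tested. Replicate 3 also had the smallest total of expected counts of the 3 libraries. In bulk samples, more mitochondria per cell, more RNA per mitochondrion and a different carry-over into the fraction cannot be told apart.

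The rRNA genes encode the small and large subunit RNAs of the mitochondrial ribosome. mt-Rnr1 (12S, chrM:70-1024, plus strand) had 4.63, 2.34 and 2.86 TPM, on 256, 160 and 174 expected counts in replicates 1, 2 and 3. mt-Rnr2 (16S, chrM:1094-2675, plus strand) had 2.49, 1.00 and 1.32 TPM, on 255, 126 and 149 expected counts. Both were highest in replicate 1 and lowest in replicate 2, which is not the order of the mRNAs. mt-Rnr1 lay above 1 TPM (limma, adjusted p = 0.000645).

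Neither rRNA had an annotated nuclear copy that met the identity limits, but the methods differed on mt-Rnr2. The second tables gave it 634, 380 and 567 counts, and gave mt-Rnr1 349, 266 and 329 counts. The ratio of mt-Rnr2 to mt-Rnr1 in TPM was 0.476 ± 0.0565 in the gene tables and 0.892 ± 0.107 in the second tables (SD, n = 3). Both rRNAs together were 0.00627, 0.00203 and 0.00139 of the mRNA TPM in replicates 1, 2 and 3. The libraries were depleted of ribosomal RNA, and whether the depletion was directed at the mitochondrial rRNAs is not given in the sources used here, so these ratios do not describe the RNAs in the cells.

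The tRNA genes were listed at 0 TPM and 0 expected counts in every gene table, and all 22 had an effective length of 0 there, so these zeros are no measurement. The genes are 59 to 75 bases long, and the labels give a fragment size range of 250 to 400 bases. In the second tables, where the effective length was above 0, 4 tRNAs, 13 mRNAs and both rRNAs lay above 1 TPM, making 19 members, and 27.3% of all genes tested did. The tRNA calls rest on short effective lengths. For mt-Tp these were 20.8, 19.3 and 16.9 bases in replicates 1, 2 and 3, which turned 69, 70 and 111 counts into 16.1, 18.3 and 33.6 TPM. The second tables held 151, 143 and 177 counts on the 22 genes in replicates 1, 2 and 3. The 8 light strand tRNA genes held 142, 136 and 170 of these, and the 14 heavy strand tRNA genes held 9, 7 and 7. The light strand share was thus 94.0%, 95.1% and 96.0%. As the strand setting is unknown, reads of the light strand tRNA genes and of heavy strand precursor RNA antisense to them cannot be told apart, so this is a share by annotated gene and not by the strand of the RNA. All 8 light strand genes had a count in some library, whereas 6 of the 14 heavy strand genes had none in any library, at a floor of 3 counts.

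The 4 tRNA genes with a mean of at least 10 counts were mt-Tp for proline, mt-Ts1 for serine, mt-Te for glutamate and mt-Tc for cysteine, all on the light strand (minus strand of mm10). They lie at chrM:15356-15422, chrM:6870-6938, chrM:14071-14139 and chrM:5192-5257. Their sequences follow with the anticodon in capitals, as these are the tRNA genes whose counts the strand difference rests on.
mt-Tp: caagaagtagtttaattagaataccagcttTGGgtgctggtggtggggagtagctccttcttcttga
mt-Ts1: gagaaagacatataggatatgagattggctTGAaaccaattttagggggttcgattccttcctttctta
mt-Te: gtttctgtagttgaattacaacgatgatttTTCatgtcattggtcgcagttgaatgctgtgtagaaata
mt-Tc: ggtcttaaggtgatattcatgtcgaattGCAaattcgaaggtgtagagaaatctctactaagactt

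mt-Tp had 69, 70 and 111 counts in replicates 1, 2 and 3 and held 45.7% to 62.7% of all tRNA counts. mt-Ts1 had 26, 15 and 19 counts, mt-Te had 20, 21 and 8, and mt-Tc had 18, 12 and 13. Among these tRNAs mt-Tp alone was called as varying between libraries beyond sampling noise (chi-square test, adjusted p = 0.000182), and it was highest in replicate 3. The adjusted p was 0.0908 for mt-Te, 0.244 for mt-Ts1 and 0.541 for mt-Tc, and 72.1% of all genes tested passed there. mt-Te, mt-Ts1 and mt-Tc had far fewer counts than mt-Tp, and the test calls only larger differences at low counts. Their lack of a call therefore does not show that they were steady. mt-Tp is the first of the light strand tRNA genes to be transcribed from the light strand promoter. In the order of light strand transcription, the mean counts were 83.3 for mt-Tp, 16.3 for mt-Te, 20.0 for mt-Ts1, 6.67 for mt-Ty, 14.3 for mt-Tc, 6.33 for mt-Tn, 1.33 for mt-Ta and 1.00 for mt-Tq. The means were thus highest at the first gene and lowest at the last pair, without a steady fall between. Reads as short as a mature tRNA and reads of uncut precursors cannot be told apart in these tables.

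**Figure D5:**
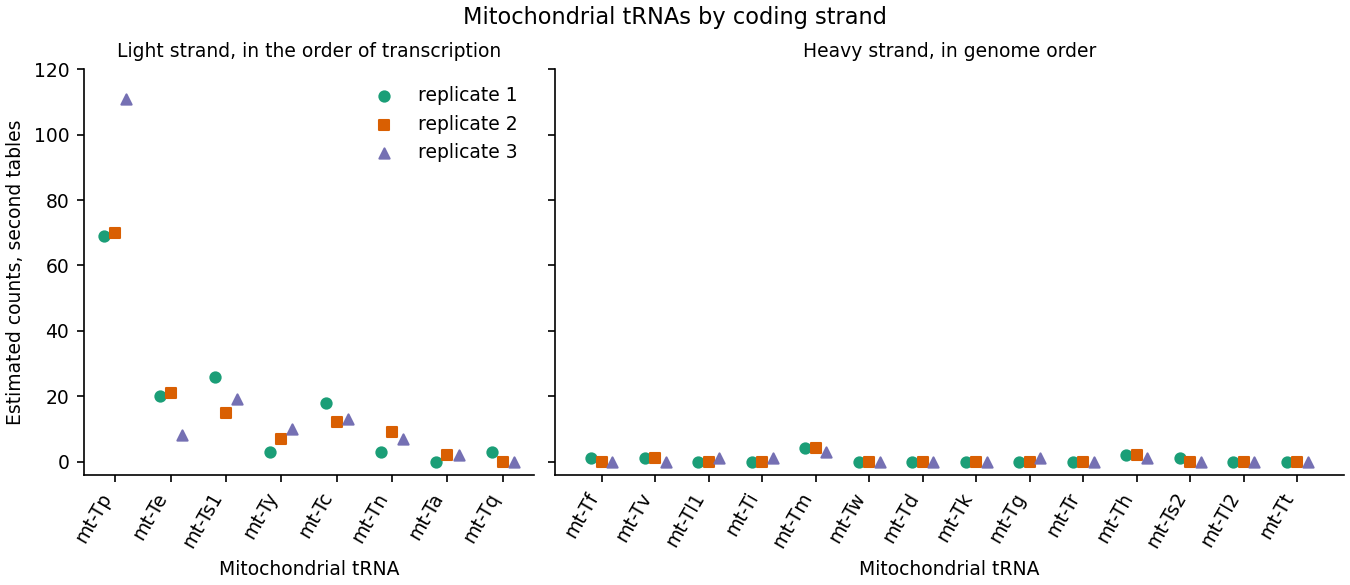
Estimated counts in the second tables (y axis) of the 8 light strand tRNAs in the order of transcription (left) and the 14 heavy strand tRNAs in genome order (right), with each library as a point. mt-Tp reaches 69 to 111 counts, the next light strand genes 8 to 26, and no heavy strand gene exceeds 4.

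The nuclear genes that maintain, transcribe and process the mitochondrial genome were expressed at low to moderate levels, with values for the named ones given as means over the libraries. Of 61 such genes 60 were found by symbol, and 52 lay above 1 TPM and 5 below, with a median of 3.26 TPM, where 44.5% of all genes tested lay above. Transcription factors and polymerase were modest: Polrmt, the RNA polymerase, had 3.62 ± 0.510 TPM, Tfam, which packs and bends the DNA at promoters, had 4.67 ± 1.04 TPM, and Tfb2m, which opens the promoter, had 2.14 ± 0.270 TPM (SD, n = 3). The highest of the list was Slirp at 39.0 ± 10.7 TPM, which with Lrpprc (6.07 ± 0.317 TPM) stabilises mitochondrial mRNAs. Rexo2, an oligoribonuclease, had 22.2 ± 2.03 TPM, and Hsd17b10, a subunit of mitochondrial RNase P, had 13.7 ± 1.23 TPM. The lowest was Mterf2 at 0.0633 TPM.

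By role, all 12 genes for mRNA stability and polyadenylation, all 6 decay genes and all 10 translation genes found lay above 1 TPM in the gene tables. In DNA maintenance 5 of 8 did, with Polg2 and Twnk below, and in transcription 6 of 9 did, with Mterf1a, Mterf1b and Mterf2 below. In processing and modification 13 of 15 did. Of the factors 10 of 60 were highest in replicate 3, beside 11.1% of all genes at 1 TPM or more, and 31 of 59 tested varied beyond sampling noise, beside 69.3% of all genes tested. These shares were not matched for depth. The median ratio of replicate 3 to the mean of the others was 0.905, beside 0.897 for all genes and 2.07 for the mitochondrial mRNAs with copies. This difference was not tested. Summed, the factors had 347, 298 and 286 TPM in replicates 1, 2 and 3, with replicate 3 lowest. TPM is a share of a fixed total, of which nuclear protein-coding genes held a smaller part in replicate 3. This order of the sums therefore does not show less RNA of the factors.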

How the data were processed

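RNA of the cytosolic fraction was measured in 3 libraries of 1 group. Estimated counts per gene (maximum likelihood and posterior mean) and TPM were deposited by the authors, who quantified a transcriptome alignment on mm10 with GENCODE M21, per the text deposited with each library and the file headers. A second set of deposited tables gives estimated counts and TPM per transcript, per the file headers. No source used here gives the aligner, quantifier, versions or strand setting. TPM depends on effective length, so very short genes are inflated or set to 0, and identical sequences share reads by estimation.

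Entries that name no gene held 0.378%, 0.0931% and 0.0772% of counts in replicates 1, 2 and 3 and were left out. Second tables were summed to genes, where counts totalled 59983417, 61140127 and 56132260. The level test was limma 3.58.1 (R 4.3.3), with an intercept-only fit of log2(TPM + 1) against 1 TPM, with trend and robust moderation, over 20685 genes with TPM above 0 in some library. Variation beyond sampling noise was assessed in 13075 genes whose expected counts, rounded, summed to 30 or more, with chi-square statistics at 2 degrees of freedom. Both used Benjamini-Hochberg adjustment over all genes, and both were checked on simulated data. The simulated data held no reads shared between genes. Nuclear copies were found with blastn 2.17.0 against a mitochondrial chromosome put together from the annotated transcripts. Adding copies summed the values of a mitochondrial gene and its copies at 99% identity or more.

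All mRNA and rRNA genes were named, as were tRNA genes and nuclear copies with a mean count of at least 10. In the second tables that minimum decided for tRNAs. The factors named were the 3 highest, the lowest and those cited by role. The members, lists and tests were chosen with earlier results of these data known. The alternatives tried were a smaller pseudocount (0.1), a minimum mean count (10), a higher level (5 TPM), the second tables, rescaling over nuclear protein-coding genes, TMM from edgeR 4.0.16, DESeq2 1.42.0 size factors, count minimums of 10 and 100, copies added, counts per kilobase, and leaving out each replicate. Other computations used pandas 2.3.3, numpy 2.4.6, scipy 1.17.1 and statsmodels 0.14.6, with figures from matplotlib 3.10.9. No genome sequence was used here.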

Additional observations from a re-analysis of the deposited data

Results flagged for a closer look

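Signals outside the gene tables were found for 4 tRNA genes, which the gene tables list at 0. In the second tables mt-Tp averaged 83.3 estimated counts, mt-Ts1 20.0, mt-Te 16.3 and mt-Tc 14.3, and each exceeded the limit of 3 counts in every library. All 4 genes lie on the light strand, and without a known strand setting reads of RNA antisense to them cannot be told apart. Control samples to set these counts against were not analysed here.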

How the results depend on the processing

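Of 67 alternative values 52 kept their direction and side of the threshold or stayed within the spread, and 15 moved. Some of the 52 could not have moved. The tRNA share is fixed at 0 in the gene tables by the effective length of 0. Adding copies cannot change the rRNA values, as the rRNAs have no such copy. The tally therefore does not measure robustness. The second tables placed 19 members above 1 TPM (12 in the gene tables), all mRNAs and rRNAs and 4 tRNAs, against 27.3% of all genes tested there. The tRNA calls there rest on short effective lengths, with a mean of 19.0 bases for mt-Tp. At a level of 5 TPM 16 factors lay above (52 at 1 TPM), because the level itself was raised. At 1 TPM 36 factors lay above in the second tables, and 58 after rescaling over nuclear protein-coding genes. The mRNA share of TPM (0.193%) was 0.0895% in the second tables, 0.665% of nuclear protein-coding TPM and 0.304% with copies. The rRNA share (0.000488%) was 0.000745% of counts and 0.00158% of nuclear protein-coding TPM, and the tRNA share (0%) was 0.00416% in the second tables. The ratio of mt-Rnr2 to mt-Rnr1 (0.476) was 0.892 in the second tables. The ratio of mt-Nd6 to the heavy strand median (1.37) was 1.18 in the second tables, 1.12 per kilobase and 0.837 with copies, where it turned from above 1 to below 1 in all 3 libraries. By TPM rank, 4 of 13 mRNAs stayed within 1 place in the second tables, 5 per kilobase and 2 with copies. The cause of these moves was not tested.

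Leaving out each replicate gave 12 to 13 members above 1 TPM, 49 to 52 factors above it, 14 to 15 members beyond sampling noise, mRNA shares of 0.139% to 0.233% and rRNA shares of 0.000376% to 0.000565%. mt-Co3 passed without replicate 1 (adjusted p = 0.0228) and mt-Co2 without replicate 3 (adjusted p = 0.000246). The noise call was lost for mt-Rnr1 without replicate 1 (adjusted p = 0.0791) and for mt-Co2 without replicate 3 (adjusted p = 0.255). mt-Rnr2 passed after rescaling over nuclear protein-coding genes (adjusted p = 4.98e-05). The sum of the mRNAs in replicate 3 over the other libraries was 2.17 as deposited, and 2.01 to 2.44 under the alternatives, of which the rescaling to 2.44 was chosen after seeing the data, as was the identity limit of 99%. No paired analysis was possible because there was 1 group. Depth limits the rRNAs and tRNAs most, with 126 to 256 counts per rRNA gene and library in the gene tables and at most 111 per tRNA gene and library in the second tables.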
